A study of Mus musculus with 8 samples.

Results

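The 8 genes described here carry out chloride and fluid secretion in the gut epithelium, or make up the guanylin hormone system that stimulates it. They are Cftr, Slc12a2, Kcnq1, Kcne3, Kcnn4, Gucy2c, Guca2a and Guca2b, taken by symbol from 23366 genes in the count tables, and all 8 passed the filter on low counts. RNA was sequenced from sorted intestinal epithelial cells of 6-week-old male littermate mice in 8 libraries of 50000 cells each. Cells positive for CD326 (the epithelial adhesion protein encoded by Epcam) were divided by CD44 into a positive gate, CD44plus, which enriches crypt cells, and a negative gate, CD44minus, which enriches villus cells. Sox4cKO mice had the genotype Sox4 floxed/floxed with villin-Cre, a transgene that deletes Sox4 in intestinal epithelium from embryonic life on. Control mice were Sox4 floxed/floxed without Cre, so both genotypes carried floxed alleles and Cre is present in Sox4cKO mice alone. The 4 groups are Sox4cKO CD44plus, control CD44plus, Sox4cKO CD44minus and control CD44minus, each with 2 libraries from separate animals. Both gates of a genotype come from the same 2 animals.

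Chloride secretion moves water into the gut lumen. The sodium-potassium-chloride cotransporter Slc12a2 (NKCC1) brings chloride into the cell across the basolateral membrane, and the channel encoded by Cftr lets it out across the apical membrane. Potassium channels of the basolateral membrane keep the cell interior negative, which drives chloride exit: Kcnq1 with its subunit Kcne3 answers to cyclic AMP, and Kcnn4 answers to calcium. The peptide hormones guanylin (Guca2a) and uroguanylin (Guca2b) are released towards the lumen and bind the receptor Gucy2c, which makes cyclic GMP and through it opens the Cftr channel. Secretion is classically placed in crypts and absorption in villi, and Sox4 is a transcription factor, so the comparisons ask how these genes divide between the gates and whether Sox4 deletion goes with other levels.

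Levels are CPM, the reads of a gene in each library scaled to a common total with factors from the trimmed mean of M values (TMM). Value pairs give replicate 1 and then replicate 2. Gene counts per library ran between 6007554 and 13238050 in CD44plus and between 886194 and 6963345 in CD44minus. Sox4 lay at 17.8 and 25.7 CPM in Sox4cKO CD44plus and at 128 and 120.2 CPM in control CD44plus; in CD44minus it had 4 and 1 reads in Sox4cKO and 10 and 21 reads in control. Cd44 lay between 203 and 327 CPM in CD44plus and between 5.72 and 27.2 CPM in CD44minus. The summed level of 10 enterocyte markers was 1296 to 1922 CPM in CD44plus and 10558 to 54562 CPM in CD44minus, and that of 8 markers of stem and cycling crypt cells was 7072 to 9382 CPM in CD44plus and 309 to 637 CPM in CD44minus. The summed level of 5 Paneth cell markers went against the crypt label, with 3335 to 5009 CPM in CD44plus and 5750 to 31800 CPM in CD44minus. Of these 5 markers, 3 in Sox4cKO and 4 in control were lower in CD44plus without overlap, and 0 were higher. Of all genes, 16.2% in Sox4cKO and 41% in control were lower in this way. Background was gauged from receptor genes of smell and pheromone sensing, which as a set were assumed to be mostly silent in gut. That assumption was not tested, and no single receptor gene was left out for a known place in gut. Extended over the exonic length of every gene, reads per coding base of these receptors predicted that 0.433% to 2.25% of gene counts in CD44plus were background, against 25.9% and 1.17% in Sox4cKO CD44minus and 22.8% and 8.59% in control CD44minus. With exonic length for the receptors too, each prediction is 3.45 times lower, 7.53% and 0.339% in Sox4cKO CD44minus and 6.62% and 2.49% in control CD44minus; which length applies depends on the annotation used for counting, which is not given in the sources used here. Sox4cKO CD44minus replicate 2 stood apart: it lay among the CD44plus libraries on the first principal component (69% of variance), and its 4 epithelial markers summed to 14189 CPM against 2441 to 5201 CPM in the other CD44minus libraries. On the second component (18.5%) it lay at -134, with the CD44plus libraries at 27.8 to 37.7. Among CD44minus libraries it had the lowest Cd44 level (5.72 CPM), the highest enterocyte sum (54562 CPM) and the smallest predicted background. Fitted values that use this group, and the correlations among the 8 genes, are therefore given with and without Sox4cKO CD44minus replicate 2. For this group, fitted values without it rest on replicate 1, whose predicted background was 25.9% by coding length. In bulk RNA, fewer cells of a type and less RNA per cell cannot be told apart.

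The chloride uptake gene and the 3 potassium channel genes had far higher levels in CD44plus than in CD44minus, whereas the uroguanylin gene Guca2b lay on the CD44minus side. In Sox4cKO mice, 2 of the 8 genes were called higher in CD44plus (Kcne3 and Kcnn4) and 0 were called lower; over all 20427 genes tested, 1.66% were called higher and 0.93% lower. A call here is an adjusted p under 0.05 in edgeR's quasi-likelihood test with Benjamini-Hochberg adjustment over all genes. In control mice, 4 of 8 were called higher (Slc12a2, Kcnq1, Kcne3 and Kcnn4) and 0 lower, beside 2.01% and 0.445% of all genes. The split of calls over all genes depended on scaling: 339 were higher and 190 lower in CD44plus in Sox4cKO with TMM, 329 and 312 with relative log expression factors, 720 and 1045 with DESeq2 and 489 and 460 when libraries were scaled to Epcam. In control the numbers were 411 and 91 with TMM, 384 and 176 with relative log expression factors, 1138 and 1061 with DESeq2, 1416 and 675 with library totals and 294 and 641 with Epcam. The median log2 fold change of the 8 genes was 1.47 in Sox4cKO and 2.19 in control, while that of all genes tested was -0.48 in Sox4cKO and -0.19 in control.

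**Figure D1:**
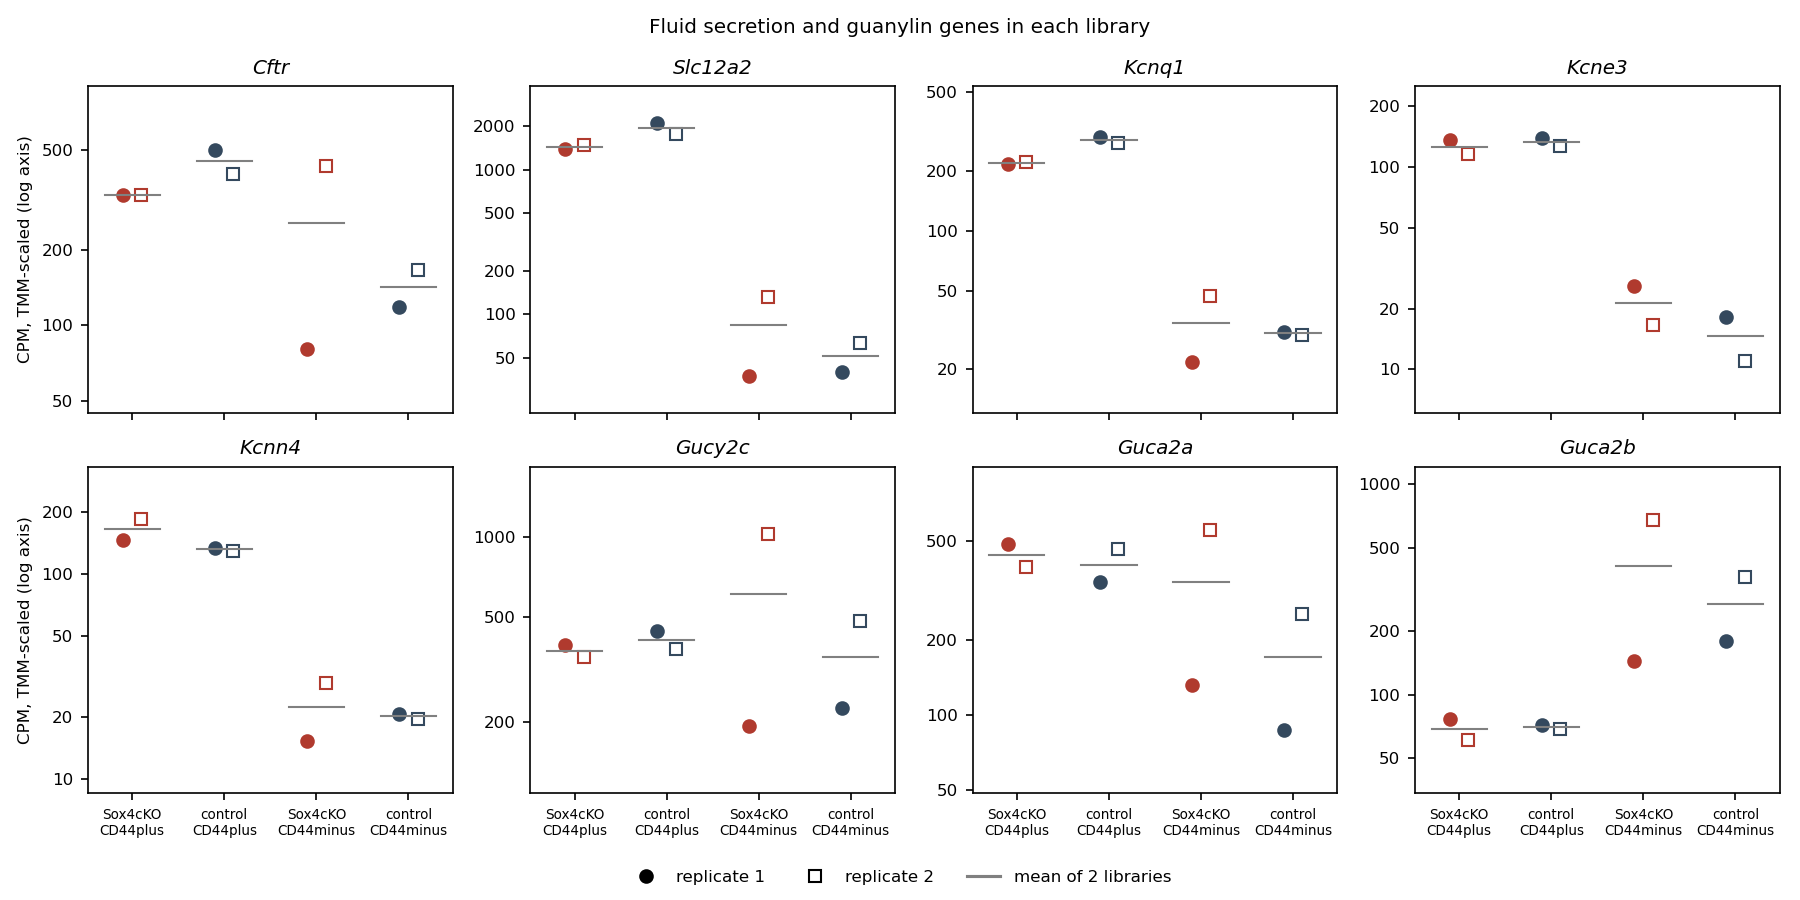
TMM-scaled CPM (log axis) of each gene in every library, by group; circles are replicate 1, squares replicate 2 and bars the mean of 2 libraries. Slc12a2, Kcnq1, Kcne3 and Kcnn4 fall far from CD44plus to CD44minus, Guca2b lies the other way, and the Sox4cKO CD44minus libraries spread widely for Cftr, Gucy2c, Guca2a and Guca2b.

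Slc12a2, the basolateral chloride importer on chromosome 18, was read at 1391 and 1477 CPM in Sox4cKO CD44plus and at 2101 and 1774 CPM in control CD44plus. In CD44minus it was read at 37.6 and 131 CPM in Sox4cKO and at 39.7 and 63.3 CPM in control. All 4 CD44plus libraries lay at least 10 times above every CD44minus library, and within CD44plus both Sox4cKO libraries lay under both control libraries. Between gates the fitted fold in Sox4cKO was 16.9 (log2 fold change 4.08, SE 1.17, edgeR adjusted p = 0.0727), which did not pass. In control it was 37.5-fold higher in CD44plus (log2 5.23, SE 1.24, edgeR adjusted p = 0.0346). Paired within animals, the CD44plus level was 37.0 and 11.2 times the CD44minus level in Sox4cKO mice and 52.9 and 28.0 times in control mice.

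Cftr, the apical chloride channel (GRCm38, chromosome 6, 18170687 to 18322768), divided much less sharply. It shares 129 of its 7765 exonic bases with Gm15592 on the other strand. It lay at 332 and 330.01 CPM in Sox4cKO CD44plus and at 501 and 402 CPM in control CD44plus. The CD44minus libraries were at 80.7 and 431 CPM in Sox4cKO and at 118 and 166 CPM in control. The control gates did not overlap, but Sox4cKO CD44minus replicate 2 lay above both Sox4cKO CD44plus libraries. Neither gate comparison passed (log2 fold change 0.37, SE 0.88, edgeR adjusted p = 0.818 in Sox4cKO and 1.67, SE 0.90, edgeR adjusted p = 0.254 in control). Without Sox4cKO CD44minus replicate 2 the Sox4cKO difference was called at 2.04, and without replicate 1 of that group it turned to -0.38.

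The uptake and exit genes stood in another proportion in each gate. Within single libraries, where scaling cancels, Slc12a2 had 4.19 and 4.48 reads for each Cftr read in Sox4cKO CD44plus and 4.20 and 4.42 in control CD44plus. In CD44minus it had 0.466 and 0.304 reads for each Cftr read in Sox4cKO and 0.337 and 0.382 in control. The ratio was between 8.99 and 14.7 times higher in CD44plus in 4 of 4 animals, and the genotypes overlapped in both gates. An exact permutation test of 2 against 2 libraries cannot give a two-sided p below 0.333, so the ratios carry no test here.

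Kcnq1, the pore of the cyclic AMP-activated potassium channel (chromosome 7, 143106362 to 143427042), was at 217 and 223 CPM in Sox4cKO CD44plus and at 299 and 277 CPM in control CD44plus. It was at 21.8 and 46.9 CPM in Sox4cKO CD44minus and at 31.0 and 29.9 CPM in control CD44minus. The gates did not overlap in either genotype, and Sox4cKO CD44plus libraries were both below control CD44plus libraries. The fitted fold of 6.37 in Sox4cKO did not pass (log2 2.67, SE 0.75, edgeR adjusted p = 0.0667), and Kcnq1 was 9.46-fold higher in CD44plus in control (log2 3.24, SE 0.77, edgeR adjusted p = 0.0356). It shares 121 of its 4093 exonic bases with Kcnq1ot1 on the other strand, and without a stated strand setting the reads there cannot be assigned.

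Kcne3, the subunit that holds Kcnq1 open in epithelia (chromosome 7, 100176502 to 100184869), was at 136 and 116 CPM in Sox4cKO CD44plus and at 140.3 and 127 CPM in control CD44plus. In CD44minus it was at 25.8 and 16.6 CPM in Sox4cKO and at 18.2 and 11.0 CPM in control. Both gates stood clear of each other and the genotypes overlapped within each gate. It was higher in CD44plus by 5.98-fold in Sox4cKO (log2 2.58, SE 0.65, edgeR adjusted p = 0.0420) and by 9.25-fold in control (log2 3.21, SE 0.68, edgeR adjusted p = 0.0232). The call in Sox4cKO was lost with library totals (edgeR adjusted p = 0.0863), with Epcam scaling (0.309) and in the fit of 4 libraries (0.110), and the call in control with Epcam scaling (0.300). These levels rest on 61 or fewer reads in each CD44minus library, with an exact Poisson 95% interval of 17.8 to 39.3 around the 27 reads of control replicate 1.

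Kcnn4, the calcium-activated potassium channel (chromosome 7, 24370263 to 24386690), lay at 146 and 185 CPM in Sox4cKO CD44plus and at 134 and 130.04 CPM in control CD44plus. It lay at 15.4 and 29.4 CPM in Sox4cKO CD44minus and at 20.9 and 19.7 CPM in control CD44minus. The gates did not overlap, and here Sox4cKO CD44plus libraries were both above control CD44plus libraries. The gene was higher in CD44plus by 7.34-fold in Sox4cKO (log2 2.88, SE 0.68, edgeR adjusted p = 0.0307) and by 6.51-fold in control (log2 2.70, SE 0.68, edgeR adjusted p = 0.0443). The call in Sox4cKO was lost in the fit of 4 libraries (edgeR adjusted p = 0.0636) and the call in control with Epcam scaling (0.152). Kcnn4 is also known from T cells and mast cells. The 6 T cell markers summed to 1597 and 3794 CPM in Sox4cKO CD44plus, 1555 and 2343 CPM in control CD44plus and 131 to 702 CPM in CD44minus; the 4 mast cell markers summed to 3389 and 16790 CPM, 1647 and 2820 CPM and 7.90 to 38.1 CPM in the same order. Sox4cKO CD44plus replicate 2 was highest in both lists and in Kcnn4, and the part of these cells in the Kcnn4 level was not tested.

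The gate calls depended on single libraries. In Sox4cKO, the 2 calls became 0 without any one control library or without Sox4cKO CD44plus replicate 2, 1 without Sox4cKO CD44plus replicate 1, 5 without Sox4cKO CD44minus replicate 1 (4 higher and 1 lower, beside 8.45% and 8.25% of all genes) and 6 without Sox4cKO CD44minus replicate 2 (all higher, beside 25% of all genes higher and 16% lower). In control, the 4 calls became 0 without any one of the 4 control libraries and 1 (Kcne3) without Sox4cKO CD44plus replicate 2. They became 6 (5 higher and 1 lower) without Sox4cKO CD44minus replicate 1, beside 24.1% of all genes higher and 12.3% lower, and 6 likewise without replicate 2 of that group, beside 22.8% and 11.8%. With the animal as a block, which is the design of the sort, 4 genes were called higher in each genotype, beside 3.95% of all genes higher and 4.43% lower in Sox4cKO and 7.37% and 10.5% in control, Slc12a2 (edgeR adjusted p = 0.0474) and Kcnq1 (0.0361) joining Kcne3 and Kcnn4 in Sox4cKO; over all alternatives the adjusted p in Sox4cKO ranged from 3.83e-11 to 0.689 for Slc12a2 and from 2.04e-05 to 0.657 for Kcnq1. The direction of these 4 genes was positive in all 18 alternatives tried.

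Without Sox4cKO CD44minus replicate 2, the Sox4cKO gate values of the 4 genes were 5.26 for Slc12a2, 3.34 for Kcnq1, 2.30 for Kcne3 and 3.44 for Kcnn4 (edgeR adjusted p = 0.00186, 0.00147, 0.00320 and 0.00127). Guca2a was called at 1.75 (edgeR adjusted p = 0.0461), Guca2b fell short at -1.07 (0.0749) and Gucy2c turned to 0.95 (0.188). These values compare 2 Sox4cKO CD44plus libraries with 1 CD44minus library, which is assumed to vary like the other groups.

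**Figure D2:**
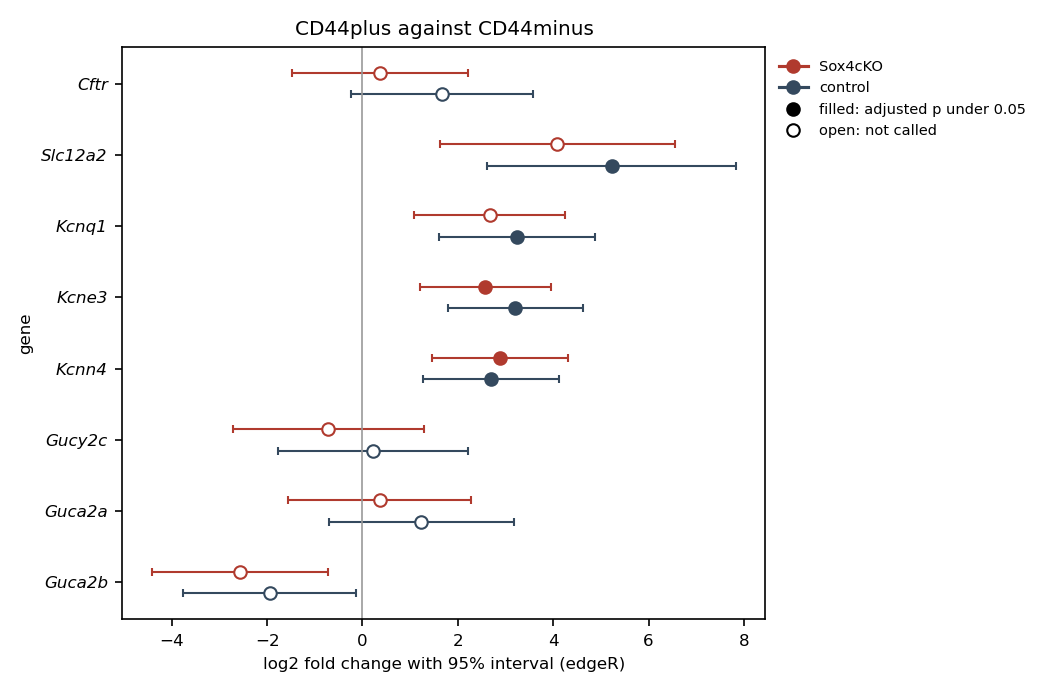
Log2 fold change of CD44plus against CD44minus with a 95% interval derived from the edgeR test, in Sox4cKO (upper of each pair) and control (lower). Filled points passed an adjusted p of 0.05. Slc12a2, Kcnq1, Kcne3 and Kcnn4 lie to the right of 0 in both genotypes and Guca2b to the left, with intervals several log2 units wide.

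A part of the CD44minus reads of these genes can be background. By coding length of the receptor genes, the higher of both estimates, the predicted background came to 50.9% and 3.89% of Kcnn4 reads in Sox4cKO CD44minus and to 33.8% and 20.7% in control CD44minus. For Slc12a2 it came to 44.3% and 1.86% in Sox4cKO CD44minus and to 37.9% and 13.7% in control CD44minus. The share was at most 28.7% for Kcnq1, 14.7% for Cftr, 13.5% for Kcne3, 3.14% for Gucy2c and 0.942% for the hormones. By exonic length it came to 14.8% and 1.13% of Kcnn4 reads in Sox4cKO CD44minus and to 9.80% and 6.00% in control CD44minus, and to 12.9% or less for each other gene. After subtraction of the reads predicted by coding length, 5 genes were called in each genotype: the 4 above, which were higher in CD44plus, and Guca2b, which was lower. Over all 18055 genes then tested, 8.02% were called higher and 2.59% lower in Sox4cKO and 8.87% and 2.64% in control. After subtraction by exonic length the same 5 genes were called in each genotype, beside 5.16% of all genes higher and 1.51% lower in Sox4cKO and 6.12% and 1.44% in control.

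**Figure D3:**
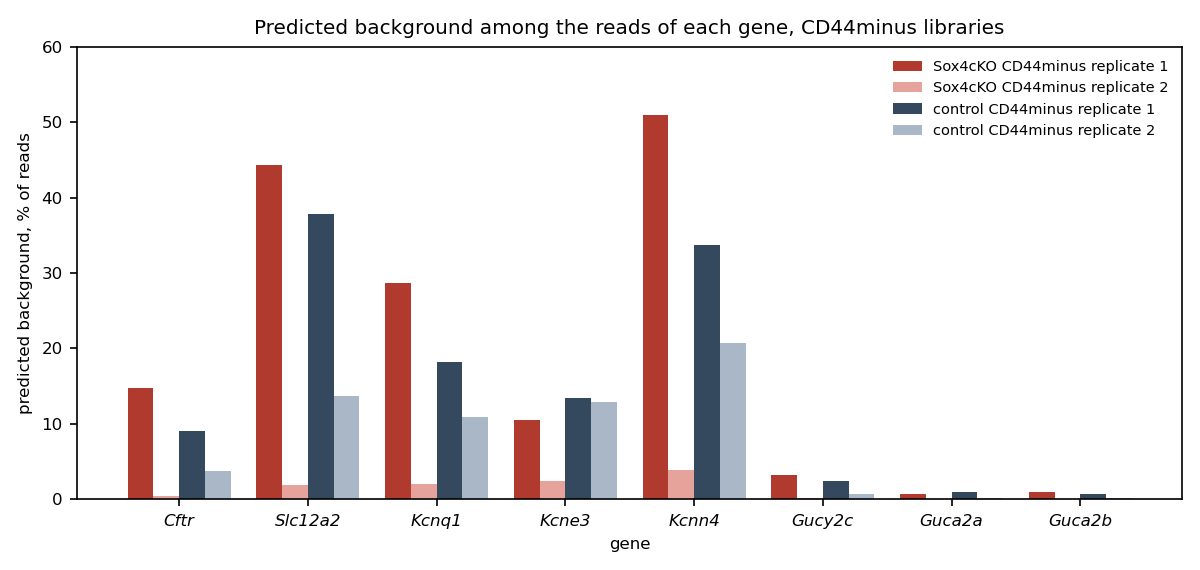
Predicted background as a percentage of the reads of each gene in the 4 CD44minus libraries, from reads per coding base of receptor genes of smell and pheromone sensing. Bars reach 50.9% for Kcnn4 in Sox4cKO replicate 1 and stay under 1% for Guca2a and Guca2b; by exonic length each would be 3.45 times shorter.

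Guanylin and uroguanylin are short peptides cut from the end of their precursors, and their genes lie 17135 bases apart on chromosome 4 with their 3′ ends facing each other (GRCm38; Guca2a on the plus strand, 119637704 to 119639471; Guca2b on the minus strand, 119656607 to 119658954). The last 15 codons before the stop are shown because they encode the end of the hormone; capitals mark cysteine codons, whose residues form the disulfide bonds of the active peptide (GENCODE M21, GRCm38, chr4:119639228-119639272 plus strand and chr4:119656795-119656839 minus strand).
Guca2a: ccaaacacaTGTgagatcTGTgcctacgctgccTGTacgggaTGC
Guca2b: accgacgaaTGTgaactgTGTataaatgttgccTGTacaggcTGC
Both hold 4 cysteine codons, at positions 4, 7, 12 and 15 of this stretch, and share 5 of 15 codons and 29 of 45 bases. No exon of either gene shares bases with an annotated exon of another gene.

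The pair stood in another proportion in each gate. Guca2a lay at 487 and 392 CPM in Sox4cKO CD44plus and at 341 and 462 CPM in control CD44plus. In CD44minus it lay at 131 and 552 CPM in Sox4cKO and at 86.9 and 253 CPM in control. Guca2b lay at 76.4 and 61.0 CPM in Sox4cKO CD44plus and at 71.6 and 68.5 CPM in control CD44plus, against 145 and 673 CPM in Sox4cKO CD44minus and 179 and 361 CPM in control CD44minus. For Guca2b every CD44plus library lay under every CD44minus library, while for Guca2a the control gates did not overlap, with CD44plus higher, and the Sox4cKO gates overlapped. Gates that did not overlap were common: in Sox4cKO 21.1% of all genes were higher and 16.2% lower in CD44plus in this way, and in control 38.7% and 41%.

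None of the 3 genes of the hormone system passed the gate test. The fitted Guca2b level was 5.95 times lower in CD44plus in Sox4cKO (log2 fold change -2.57, SE 0.88, edgeR adjusted p = 0.140) and 3.86 times lower in control (-1.95, SE 0.86, edgeR adjusted p = 0.192). Guca2a had log2 fold changes of 0.36 (SE 0.91, edgeR adjusted p = 0.827) in Sox4cKO and 1.24 (SE 0.93, edgeR adjusted p = 0.370) in control. Guca2b was called in both genotypes by DESeq2 (DESeq2 adjusted p = 0.000214 in Sox4cKO and 0.00385 in control) and when counts were scaled to Epcam, to library totals or after background subtraction; over all alternatives its adjusted p ran from 4.44e-05 to 0.956 in Sox4cKO and from 5.42e-05 to 0.637 in control, with a negative sign in each. The Guca2a value turned to -0.33 in Sox4cKO without Sox4cKO CD44minus replicate 1.

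The ratio of both hormones needs no scaling between libraries. Guca2a had 6.38 and 6.43 reads for each Guca2b read in Sox4cKO CD44plus and 4.76 and 6.75 in control CD44plus. In CD44minus it had 0.908 and 0.820 in Sox4cKO and 0.485 and 0.701 in control. Guanylin had more reads than uroguanylin in all 4 CD44plus libraries and fewer in all 4 CD44minus libraries. The ratio was 7.03 and 7.84 times higher in CD44plus in Sox4cKO animals and 9.82 and 9.64 times higher in control animals. Per base of exon, which allows for the shorter Guca2a transcript (594 against 870 exonic bases), the ratio was 9.35 and 9.41 in Sox4cKO CD44plus, 6.98 and 9.89 in control CD44plus, 1.33 and 1.20 in Sox4cKO CD44minus and 0.710 and 1.03 in control CD44minus. Of the reads of the pair, Guca2a took 28.1% to 37.5% (exact binomial 95% interval) in control CD44minus replicate 1, the shallowest library. In CD44minus both Sox4cKO ratios lay above both control ratios; 2 libraries a group cannot reach an exact permutation p under 0.333.

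**Figure D4:**
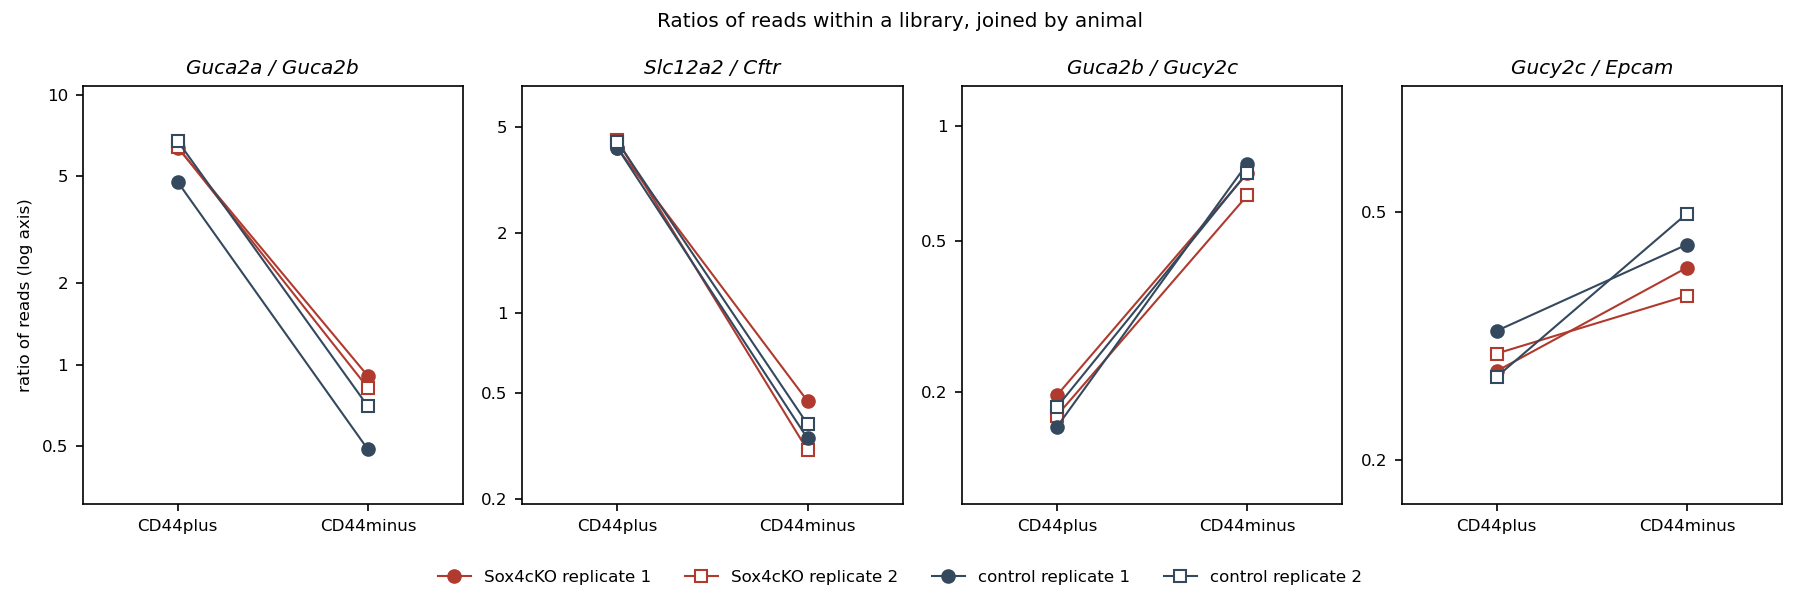
Ratio of reads of 2 genes within each library (log axis), with the gates of an animal joined by a line; Sox4cKO in red, control in blue. Guca2a over Guca2b and Slc12a2 over Cftr are several times higher in CD44plus in all 4 animals, while Guca2b over Gucy2c and Gucy2c over Epcam are higher in CD44minus. With Epcam scaling the median of all genes lies on the CD44minus side too.

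Gucy2c, the shared receptor (chromosome 6, 136697284 to 136781765, minus strand), overlapped between gates in both genotypes. Over the 8 libraries its Pearson r of log2 CPM was 0.753 with Guca2a and 0.507 with Guca2b. Over the 7 libraries other than Sox4cKO CD44minus replicate 2, r was 0.776 and -0.129 in the same order. Gucy2c lay at 389.6 and 352 CPM in Sox4cKO CD44plus and at 442 and 375 CPM in control CD44plus. In CD44minus it lay at 193 and 1025 CPM in Sox4cKO and at 225 and 479 CPM in control. CD44minus libraries fell on both sides of the CD44plus libraries in both genotypes, and the log2 fold changes of -0.72 (SE 0.95, edgeR adjusted p = 0.666) in Sox4cKO and 0.21 (SE 0.95, edgeR adjusted p = 0.876) in control did not pass. The 95% intervals, -2.72 to 1.29 and -1.78 to 2.21, leave room for differences of several fold either way. The sign in control turned under 6 of 18 alternatives, among them DESeq2 (-0.088) and Epcam scaling (-0.66).

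Set against Epcam, the marker of the sort, the receptor was steadier. Gucy2c had 0.278 and 0.297 reads for each Epcam read in Sox4cKO CD44plus and 0.322 and 0.272 in control CD44plus, against 0.407 and 0.367 in Sox4cKO CD44minus and 0.443 and 0.497 in control CD44minus. On the same scale Guca2b had 0.0545 and 0.0514 in Sox4cKO CD44plus and 0.0522 and 0.0497 in control CD44plus, against 0.305 and 0.241 in Sox4cKO CD44minus and 0.353 and 0.375 in control CD44minus. Neither ratio overlapped between gates, and the share of all genes that separate in this way is not given here. With Epcam scaling, the median log2 fold change of CD44plus against CD44minus over all genes was -0.90 in Sox4cKO and -1.21 in control. Gucy2c, at -0.43 and -0.66 in the same order, lay less far on the CD44minus side than this median. Guca2b, at -2.36 and -2.84, lay further. Epcam itself was at 473 and 2793 CPM in Sox4cKO CD44minus and at 508 and 964 CPM in control CD44minus, the same order of libraries as Guca2a, Cftr, Gucy2c and Guca2b within each group. Uroguanylin reads for each receptor read were 0.196 and 0.173 in Sox4cKO CD44plus, 0.162 and 0.183 in control CD44plus, 0.751 and 0.657 in Sox4cKO CD44minus and 0.796 and 0.755 in control CD44minus.

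The order of levels per length of exon differed between gates. In CD44plus Guca2a was first, with a mean of 740 CPM per kb in Sox4cKO and 676 CPM per kb in control, and Slc12a2 came after it with 131 and 177 CPM per kb in the same order. Gucy2c came next, at 93.7 CPM per kb in Sox4cKO CD44plus and 103 CPM per kb in control CD44plus, and the ranges of Guca2b and Kcne3 overlapped below it; in control CD44plus so did those of Kcne3 and Kcnq1. In CD44minus the hormones held both top places with overlapping ranges, Guca2a at 575 and Guca2b at 470 CPM per kb in Sox4cKO and at 286 and 311 CPM per kb in control. Slc12a2 stood last but one there, at 7.74 CPM per kb in Sox4cKO and 4.72 CPM per kb in control. Kcnn4 had the lowest mean in all 4 groups, but its libraries overlapped those of Slc12a2 in both CD44minus groups. In control CD44minus the ranges of Kcne3 and Kcnq1 overlapped too, and in Sox4cKO CD44minus each gene overlapped its neighbour in the order.

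The promoters of both hormones are shown because these neighbouring genes had 4.76 to 6.75 Guca2a reads for each Guca2b read in CD44plus libraries and 0.485 to 0.908 in CD44minus libraries. Each window runs from 250 bases before to 50 bases after the RefSeq start site (GRCm38.p6, Guca2a chr4:119637482-119637781 plus strand, Guca2b chr4:119658896-119659195 minus strand), and capitals mark matches to motif letters searched on both strands.
Guca2a: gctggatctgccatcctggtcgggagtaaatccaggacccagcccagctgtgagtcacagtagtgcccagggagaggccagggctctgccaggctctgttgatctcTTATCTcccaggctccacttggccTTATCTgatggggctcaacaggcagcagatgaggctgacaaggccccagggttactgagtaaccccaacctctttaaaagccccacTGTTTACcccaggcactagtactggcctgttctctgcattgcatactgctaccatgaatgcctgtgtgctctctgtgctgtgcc
Guca2b: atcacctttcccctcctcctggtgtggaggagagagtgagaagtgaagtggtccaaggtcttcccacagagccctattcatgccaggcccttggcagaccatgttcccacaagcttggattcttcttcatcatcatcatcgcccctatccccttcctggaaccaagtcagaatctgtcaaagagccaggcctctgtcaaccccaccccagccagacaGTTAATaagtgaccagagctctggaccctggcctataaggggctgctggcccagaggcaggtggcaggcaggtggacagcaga
The Guca2a window holds 2 matches to the GATA letters AGATAA, which read TTATCT here, at -144 and -120, and 1 to the FOX letters TGTTTAC at -34. The Guca2b window holds 1 match to the HNF1 half-site letters GTTAAT at -33. Of 32851 promoter windows of this length, 11.2% hold AGATAA, 3.65% TGTTTAC and 7.10% GTTAAT, so each match is a description of these letters and not of binding. The SOX letters ACAAAG (18.7% of promoters) and ACAATG (12.6%) are in neither window; among the other members with a window in the table, Cftr, Kcne3 and Kcnn4, ACAATG was found once, at -189 of Kcne3.

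Between genotypes, 0 of the 8 genes and 0% of all genes were called in either gate by edgeR. DESeq2 and limma-voom also called 0 of the 8. The edgeR fit of 8 libraries did not call the deleted gene either. Sox4 stood at -2.51 in CD44plus and -2.95 in CD44minus (edgeR unadjusted p = 0.000642 and 0.00225). The lack of a call in this fit therefore does not show equal levels. At an unadjusted p under 0.05 the edgeR fit of 8 libraries counted 0 of the 8 in each gate, beside 128 genes (0.627%) in CD44plus and 116 (0.568%) in CD44minus. In CD44plus the 8 log2 fold changes lay between -0.45 and 0.33 with a median of -0.11, against -0.00052 for all genes. The 95% intervals of the fit, such as -2.30 to 1.40 for Cftr and -2.61 to 1.74 for Slc12a2, are wide and include 0 for each gene.

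In CD44plus, Cftr, Slc12a2 and Kcnq1 had both Sox4cKO libraries below both control libraries, Kcnn4 had both above, and the other 4 overlapped; this was so for 16.4% (lower) and 14.2% (higher) of all genes. Their log2 fold changes were -0.45 for Cftr, -0.43 for Slc12a2, -0.39 for Kcnq1 and 0.33 for Kcnn4. The fit of the 4 CD44plus libraries alone, whose spread is smaller, put narrower intervals on them: -0.83 to -0.057 for Cftr, -0.79 to -0.069 for Slc12a2, -0.75 to -0.026 for Kcnq1 and -0.082 to 0.74 for Kcnn4. At an unadjusted p under 0.05 that edgeR fit counted 3 of the 8 as lower, Slc12a2 (0.0251), Cftr (0.0293) and Kcnq1 (0.0386), beside 2.53% of its 17052 genes. These 3 rest on the same 4 libraries, so they cannot be counted as 3 independent results. Over all 8 libraries their Pearson r of log2 CPM was 0.812 to 0.995. This r includes the gate difference and does not show how they move together within CD44plus. With edgeR adjusted p values of 0.913, 0.902, 0.930 and 0.988 over all genes of that fit, none passed, while Sox4 passed at -2.51 (edgeR adjusted p = 0.0186). The hormone and receptor genes were -0.14 for Gucy2c, 0.13 for Guca2a and -0.026 for Guca2b in that fit, with 95% intervals of -0.52 to 0.25, -0.36 to 0.62 and -0.47 to 0.42. The crypt marker list, at 7072 and 7778 CPM in Sox4cKO CD44plus and 8646 and 9382 CPM in control CD44plus, was lower in the same libraries as Cftr, Slc12a2 and Kcnq1 (5 of its 8 genes without overlap). The enteroendocrine marker list, at 1145 and 1520 CPM in Sox4cKO CD44plus and 4486 and 5571 CPM in control CD44plus, was lower there in 6 of 6 genes without overlap. All 4 mast cell markers were higher there without overlap, as Kcnn4 was. The part of these lists in the values of the 8 genes was not tested.

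**Figure D5:**
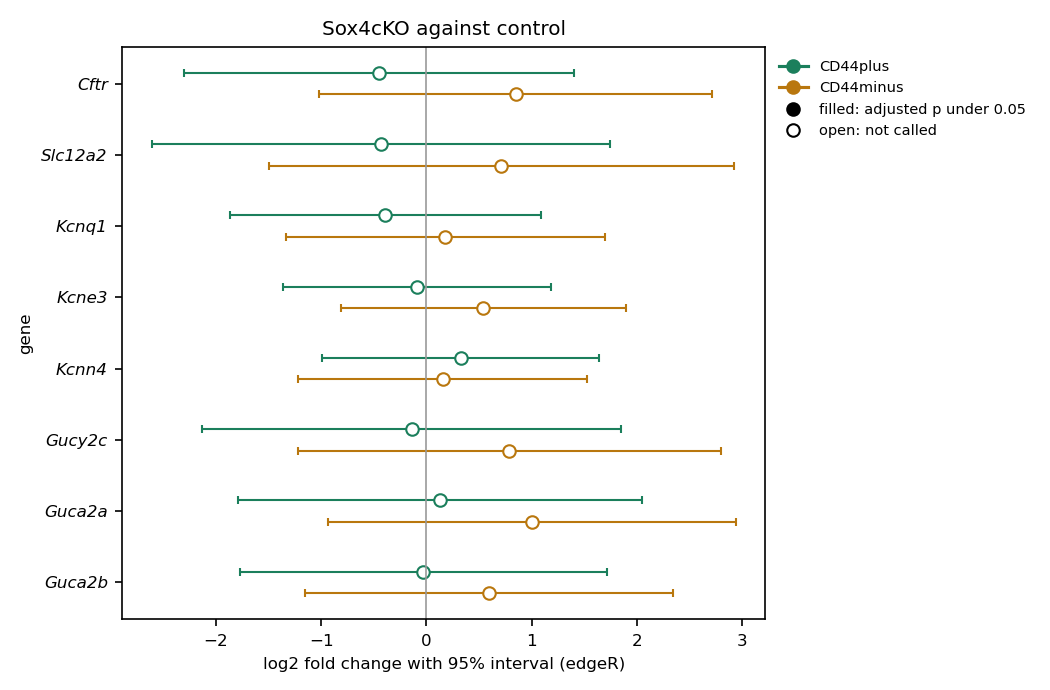
Log2 fold change of Sox4cKO against control with a 95% interval derived from the edgeR test, in CD44plus (upper of each pair) and CD44minus (lower). No point passed an adjusted p of 0.05. Every interval includes 0, and with TMM scaling and Sox4cKO CD44minus replicate 2 in the fit all 8 CD44minus values lie right of 0.

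In CD44minus, with TMM scaling and all libraries, the 8 fitted differences were positive, from 0.15 (Kcnn4) to 1.00 (Guca2a), with a median of 0.66 against 0.19 for all genes. The libraries of all 8 genes overlapped between genotypes, while 6.52% of all genes were higher and 5.94% lower in Sox4cKO without overlap. The signs depended on the scaling and on 1 library. Library totals turned 6 of the 8 negative, Cftr to -0.035, Slc12a2 to -0.018, Kcnq1 to -0.46, Kcnn4 to -0.46, Gucy2c to -0.046 and Guca2b to -0.20, and Epcam scaling turned the same 6, between -0.21 (Slc12a2) and -0.60 (Kcnq1). Kcnq1 and Kcnn4 were negative also after background subtraction by either length and in the fit of 4 libraries; subtraction by coding length turned Gucy2c (-0.0045) and Guca2b (-0.17) as well. Without Sox4cKO CD44minus replicate 2, 7 of the 8 turned negative, between -0.39 (Guca2a) and -0.91 (Guca2b), and Kcne3 alone stayed positive at 0.85; the median was then -0.48, against 0.0090 for all genes. Without Sox4cKO CD44minus replicate 1, edgeR called 4 of the 8 higher in Sox4cKO, Cftr at 1.58, Gucy2c at 1.52, Guca2a at 1.67 and Guca2b at 1.29 (edgeR adjusted p = 0.0206, 0.0388, 0.0286 and 0.0400), beside 27.5% of all genes higher; these compare 1 Sox4cKO library, assumed to vary like the other groups, with 2 control libraries. Adjusted p values over the alternatives reached 1 for each of these 4. Within libraries, Guca2b reads per Epcam read were lower in both Sox4cKO CD44minus libraries than in both control CD44minus libraries, opposite to the sign of the CPM difference. The same held for Gucy2c per Epcam read and, narrowly, for Cftr (0.171 and 0.154 in Sox4cKO, 0.232 and 0.172 in control). The other members overlapped on this scale. The share of all genes that separate in this way was not computed, and an exact permutation test of 2 against 2 libraries cannot give a p below 0.333.

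A difference of the genotype effect from one gate to the other was called for 0 of the 8 genes and 0% of all genes, and at an unadjusted p under 0.05 for 0 of the 8 and 0.245% of all genes. Its log2 values ran from -1.30 (Cftr) to 0.17 (Kcnn4), and all 8 intervals included 0. It turned positive for 6 of the 8 without Sox4cKO CD44minus replicate 2, with a median of 0.45 against 0.056 for all genes.

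The wider pathway was read from 8 lists of 100 genes in all, each of which passed the filter on low counts. Prkacb, a catalytic subunit of the cyclic AMP-dependent kinase that opens the Cftr channel, was called higher in CD44plus in Sox4cKO (log2 3.07) and in control (3.88). Its CD44minus reads, 40 and 103 in Sox4cKO and 12 and 24 in control, stood beside 27.1, 7.21, 17.9 and 17.7 predicted from background by coding length in the same order. Water channels Aqp4 (3.30) and Aqp1 (2.77) were called higher in CD44plus in control. Pdzk1, a scaffold of apical transporters, was called lower in CD44plus in Sox4cKO (-4.59) and in control (-4.86), with 10.4 and 12.7 CPM in Sox4cKO CD44plus, 5.54 and 4.57 CPM in control CD44plus, 104 and 455 CPM in Sox4cKO CD44minus and 104 and 190.3 CPM in control CD44minus.

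The sodium-hydrogen exchanger Slc9a3 (NHE3), which absorbs sodium and is inhibited by cyclic GMP signalling, was called lower in CD44plus in Sox4cKO (-3.48), as was the anion exchanger Slc26a6 (-3.43). In control Slc9a3 was at 22.5 and 16.4 CPM in CD44plus and at 130.004 and 271 CPM in CD44minus. In all, 1 of the 100 genes was called higher and 3 lower in Sox4cKO, and 3 higher and 1 lower in control, beside 1.66% and 0.93% of all genes in Sox4cKO and 2.01% and 0.445% in control. With Sox4cKO CD44minus replicate 2 left out the Sox4cKO values were 3.36 for Prkacb, -3.16 for Pdzk1, -2.39 for Slc9a3 and -2.16 for Slc26a6. The calls depended on the processing. In Sox4cKO they were lost in 7 of 18 alternatives for Prkacb, Slc9a3 and Slc26a6 and in 2 for Pdzk1. In control they were lost in 6 of 18 for Aqp1, in 4 for Aqp4 and Prkacb and in 3 for Pdzk1. With all libraries in the fit, the median over the 100 genes was -0.88 in Sox4cKO and -0.38 in control, against -0.48 and -0.19 for all genes. The median over the 100 genes without Sox4cKO CD44minus replicate 2 is not given here. The list of 10 transcription factors known to act on Guca2a, Guca2b or Gucy2c in mouse or human gut had no gene called in the gate or genotype comparisons, and neither had the 19 receptors for secretagogues and their opponents or the 14 genes of basolateral drive.

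Between genotypes 0 of the 100 genes were called in either gate. In CD44plus the largest differences among genes whose libraries did not overlap were 1.19 for Pdzk1, 1.01 for the purine receptor P2ry2, -1.08 for the calcium-sensing receptor Casr, -0.97 for the potassium channel Kcnma1, -0.80 for the cyclic GMP-dependent kinase Prkg1 and -0.77 for P2ry6. They rest on low levels, at most 21.4 CPM in any CD44plus library. Leaving out 1 library moved them to between -2.92 and -0.29 for Casr, -1.46 and -0.59 for Kcnma1, -1.38 and -0.39 for Prkg1, -1.21 and -0.49 for P2ry6 and 0.65 and 1.19 for P2ry2. In CD44minus they were 1.46 for Aqp4, 1.45 for Prkacb, 1.04 for the phosphodiesterase Pde4d, 0.96 for P2ry4, -1.08 for the sodium channel subunit Scnn1g and -0.98 for the potassium channel Kcnj15, with the same unequal background as above. They were, with Sox4cKO CD44minus replicate 2 left out, 0.84 for Aqp4, 1.15 for Prkacb, 0.16 for Pde4d, 0.67 for P2ry4, -0.51 for Scnn1g and -0.23 for Kcnj15. Over all single libraries left out, they reached 1.88 for Aqp4, 1.55 for Pde4d, -1.99 for Scnn1g and -2.58 for Kcnj15, and P2ry4 lay between 0.44 and 1.87.

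Over the 8 libraries, Slc12a2, Kcnq1, Kcne3 and Kcnn4 moved together, with Pearson r of log2 CPM between 0.939 and 0.995, and Guca2b ran against them (-0.725 to -0.891). These 8 points share the gate difference and the unequal depth and background of the libraries, so the coefficients are descriptions. Cftr was closest to Guca2a among the members (r = 0.882). Over the 7 libraries other than Sox4cKO CD44minus replicate 2, r lay between 0.950 and 0.996 among the first 4 genes and between -0.861 and -0.963 with Guca2b, and Cftr was closest to Kcnq1 (r = 0.965). Among 13930 genes and over all 8 libraries, the most alike were Ephb4, Adra2a and Fgfr2 for Slc12a2; Ube2c, Rif1 and Plch2 for Kcnq1; Atm, Dsn1 and Nop16 for Kcne3; Tuba1b, Racgap1 and Lig1 for Kcnn4; and Lrp4, Enoph1 and Fam136a for Cftr. Those of Gucy2c were Gpc4, Sh3d19 and Gpr89, and those of Guca2a were Psmb9, Mrfap1 and Bola3. Guca2b was most like Abcg5, a sterol transporter gene (r = 0.999), Slc16a5 and 1700019G17Rik. All 24 had r of at least 0.992, and between 649 (Guca2b) and 2793 (Cftr) genes had r over 0.9.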

How the data were processed

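RNA was sequenced in 8 libraries, 2 for each of 4 groups of genotype and gate, grouped by their titles. Each deposited table holds the raw read counts of 1 library by gene symbol. Per the submitters' processing notes, the mm10 build was used with STAR 2.2.5b and HTSeq 0.6.1p1, and Trimmomatic 0.36 and bcl2fastq 2.17.4 are named as well; settings, annotation and strand setting are not given in the sources used here. HTSeq's summary lines were left out. Of the uniquely placed reads, 64.6% to 79.3% were counted to no gene in CD44plus libraries. In CD44minus the share was 96.6% and 76.8% in Sox4cKO and 96.3% and 92.0% in control. CPM and fold changes were computed from the counts, and 0 other sample columns were present.

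The tools were DESeq2 1.42.0, limma 3.58.1 and edgeR 4.0.16 under R 4.3.3. The main analysis fitted 4 groups in 8 libraries with edgeR's quasi-likelihood test, filterByExpr (minimum count 10), TMM factors (0.527 to 1.72) and Benjamini-Hochberg adjustment over 20427 genes, threshold 0.05, in 5 comparisons. The script was tested on simulated data. Alternatives were DESeq2, 2 other scalings, no filter, a replicate block, 4-library fits, background subtraction by coding or exonic length, scaling to Epcam and leaving out each library. In edgeR the block was the animal for gate comparisons. For genotype comparisons and the difference between gates it was the replicate number, which joins separate mice. In limma-voom the animal was a random effect throughout. The replicates are separate animals. Both gates share an animal number in their deposited table names, which pairs them; deviations from group means correlated at 0.493 between gates in Sox4cKO and 0.102 in control. The edgeR intervals include the spread between libraries; the Poisson and binomial intervals and the floor cover counting error only, since no molecular identifiers are named. By that floor a count of 0 allows 3 counts, which is 0.227 to 3.39 CPM of gene counts.

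Of 23366 symbols, 21732 matched GENCODE M21 by symbol, 1281 by a synonym and 353 not at all. Background is the reads per kb of coding length over 1435 Olfr and Vmn genes, times the exonic length of a gene, which makes it the higher estimate; the lower one, added after seeing the data, uses the exonic length of those genes too. The 8 genes, the marker and pathway lists and the motifs were chosen with earlier results of these data known, the motifs with the promoter letters in view, so their choice is no independent support. All members were named. From the pathway lists, up to 6 called genes a comparison were named, and in genotype comparisons up to 6 without overlap, with a mean of at least 5 CPM, by size of change. Likeness is Pearson r of log2(CPM + 1), pseudocount 1, among genes of at least 5 CPM, the 3 highest a member.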

Additional observations from a re-analysis of the deposited data

How the results depend on the processing

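Each group has 2 libraries, CD44minus libraries are shallow and unequal in background, and the spread is shared over all groups, so intervals are wide; the causes of the changes below were not tested. The directions of Slc12a2, Kcnq1, Kcne3 and Kcnn4 between gates (all positive) and of Guca2b (negative) held in all 18 alternatives in both genotypes; the genotype direction of Cftr, Slc12a2, Kcnq1, Kcnn4 and Gucy2c held in CD44plus in all 18. In CD44plus against CD44minus in Sox4cKO, 2 of the 8 genes were called in the main analysis, 5 by DESeq2 and after background subtraction by either length, 4 with relative log expression factors, library totals or Epcam scaling, and 0 in the fit of 4 libraries; in control the 4 calls were 3 with Epcam scaling and 4 to 6 with the other settings that keep all libraries; leaving out 1 library gave 0 to 6 there, 0 to 6 in control (4 in the main analysis), 0 to 4 for genotype in CD44minus (0 in the main analysis), and 0 to 0 for genotype in CD44plus and for the difference between gates. The replicate block gave 4 in Sox4cKO with edgeR, where gates are paired by animal, and 4 with limma-voom (animal as a random effect). It changed no other count of calls among the 8 genes. Between genotypes the edgeR block is the replicate number and pairs no animals.

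Over all genes, 529 were called between gates in Sox4cKO and 502 in control. The counts were 1765 and 2199 with DESeq2, 2039 and 2091 with library totals, 884 and 994 without the filter, 1712 and 3659 with the edgeR replicate block, 1105 and 2176 with limma-voom and its replicate block, 0 and 9877 in fits of 4 libraries, 1916 and 2079 after background subtraction by coding length, 1314 and 1488 by exonic length and 949 and 935 with Epcam scaling, in the order Sox4cKO and control. Leaving out 1 library gave 11 to 8440 and 0 to 7362 in that order. For genotype in CD44plus, 0 became 1 with the replicate block and 17 in the fit of 4 libraries, and 0 to 24 without 1 library; without 1 library genotype in CD44minus gave 0 to 7613 and the difference between gates 0 to 254. Scaling to Epcam and subtraction by exonic length were chosen after seeing the data. Other scalings moved the median of all genes: in Sox4cKO between gates by -0.25 (DESeq2), -0.24 (library totals) and -0.42 (Epcam), in control by -0.34, -0.59 and -1.02 in the same order, and for genotype in CD44minus by -0.31 (library totals) and -0.37 (Epcam). Sox4cKO and control libraries that share only a number correlated in their deviations at 0.295 in CD44plus and 0.655 in CD44minus.

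Signs turned as follows, in log2. For genotype in CD44minus, library totals gave -0.035 for Cftr, -0.018 for Slc12a2, -0.46 for Kcnq1, -0.46 for Kcnn4, -0.046 for Gucy2c and -0.20 for Guca2b; Epcam scaling gave -0.31 for Cftr, -0.21 for Slc12a2, -0.60 for Kcnq1, -0.58 for Kcnn4, -0.28 for Gucy2c and -0.42 for Guca2b. Background subtraction by coding length gave -0.45 for Kcnq1, -0.46 for Kcnn4, -0.0045 for Gucy2c and -0.17 for Guca2b, subtraction by exonic length -0.25 for Kcnq1 and -0.24 for Kcnn4, and the fit of 4 libraries -0.23 for Kcnq1 and -0.25 for Kcnn4. For Gucy2c between gates in control, the values were -0.088 with DESeq2, -0.087 with relative log expression, -0.28 with totals, -0.25 after subtraction by coding length and -0.66 with Epcam. For genotype in CD44plus, Epcam scaling gave 0.00012 for Kcne3 and 0.055 for Guca2b. For the difference between gates, Epcam gave 0.31 for Kcnq1, 0.23 for Gucy2c, 0.098 for Guca2a and 0.47 for Guca2b, subtraction by coding length 0.030 for Kcnq1 and 0.13 for Guca2b, and totals 0.078 for Guca2b.

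Leaving out 1 library gave, for genotype in CD44minus, -0.82 to 1.58 for Cftr, -0.47 to 1.32 for Slc12a2, -0.49 to 0.60 for Kcnq1, -0.40 to 0.52 for Kcnn4, -0.88 to 1.52 for Gucy2c, -0.39 to 1.97 for Guca2a and -0.91 to 1.29 for Guca2b. For genotype in CD44plus it gave -0.13 to 0.37 for Guca2a, -0.31 to 0.13 for Guca2b and -0.32 to 0.027 for Kcne3. Between gates it gave -0.38 to 2.04 for Cftr, -0.33 to 1.75 for Guca2a and -1.47 to 0.95 for Gucy2c in Sox4cKO and -0.24 to 0.85 for Gucy2c in control. For the difference between gates it gave -2.03 to 0.38 for Cftr, -1.75 to 0.036 for Slc12a2, -0.99 to 0.097 for Kcnq1, -0.19 to 0.73 for Kcnn4, -1.66 to 0.74 for Gucy2c, -1.83 to 0.52 for Guca2a and -1.32 to 0.88 for Guca2b.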
